A study of Mus musculus with 6 samples.

Results

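Cytosolic ribosomal protein genes were examined in RNA-seq of C2C12 cells, an immortalised mouse myoblast line. The genes were chosen by symbol alone, as Rpl or Rps followed by a number and an optional suffix, Rplp0, Rplp1, Rplp2 or Rpsa, and kept where the 6 libraries averaged 0.5 FPKM or more (fragments scaled by transcript length and library total). Of 22375 rows in the deposited table, 84 symbols matched and 80 passed the filter on low values, 48 of the large (60S) subunit and 32 of the small (40S) subunit. The 4 that did not pass were Rps4l, Rpl10l and Rpl39l, listed at 0 in all 6 libraries, and Rpl3l, which lay between 0 and 0.0533 FPKM. The study asked whether ventilating rabbits at high end-expiratory pressure activates the integrin ITGB1 and leads to fibrosis of the diaphragm. It stretched C2C12 cells to simulate mechanical overload. Its 3 CON libraries came from C2C12 cells that were not stretched, and its 3 4H libraries from C2C12 cells under cyclic stretch at 15% elongation for 4 h. All cells were of this 1 line, and the stretched cells were grown close to confluence on elastic plates coated with poly-lysine. The labels call the 3 libraries of a group separate biosamples but do not say whether they came from separate cultures, so p-values measure the spread between these samples, which may be technical.

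A ribosome reads mRNA with its small subunit and joins amino acids in its large subunit, and each subunit is built from ribosomal RNA and a set of ribosomal proteins, most of them small and basic. Most mRNAs of these proteins begin with a C followed by an unbroken run of C and T (U in the RNA), the 5' terminal oligopyrimidine (TOP) tract. Translation of TOP mRNAs depends on the kinase mTOR and the RNA-binding protein Larp1, so that the proteins are made together when a cell grows. In muscle cells, ribosome production sets how much protein a cell can make and is known to respond to mechanical load.

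Start sites were taken from a set of RefSeq promoters (GRCm38.p6, the assembly also called mm10, which is the build in the submitters' processing notes). This set held 60 of the 80 genes, and whether RefSeq itself has starts for the others was not checked. The sequences below run from 15 bases before the annotated start to the 15 bases that begin with it, 5' to 3', with the longest run of C and T in capitals (the first of equal runs). The first 5 are the genes with the longest run of C and T through the annotated start base, shown for the letters that a TOP tract is made of. The run is not the tract itself, since 4 to 15 of the capitals lie before the start and the start base, which is the sixteenth letter, is T in Rpl7a, Rpl27a and Rpl34 and C in Rpl35 and Rpl15. Of the 60 genes, 21 had an entry that starts with C and 13 one that starts with C and at least 4 further C or T.
Rpl7a (chr2:26910792-26910821, + strand): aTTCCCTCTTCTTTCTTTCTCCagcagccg
Rpl27a (chr7:109519180-109519209, + strand): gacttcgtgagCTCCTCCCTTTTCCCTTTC
Rpl34 (chr3:130730323-130730352, - strand): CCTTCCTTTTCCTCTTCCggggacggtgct
Rpl35 (chr2:39005117-39005146, - strand): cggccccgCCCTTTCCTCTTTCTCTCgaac
Rpl15 (chr14:18270972-18271001, - strand): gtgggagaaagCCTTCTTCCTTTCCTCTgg
The other 3 belong to the genes with the 3 highest log2 fold changes between the groups, whose values come further on. In these windows the longest run had 4 bases in Rpl37a and 2 bases in Rpl24 and Rpl7l1. Within 20 bases of the start, the longest run had 3 bases in Rpl24 and Rpl7l1. It was as short in Rpl10, Rpl23, Rpl41 and Rps3, which were lower in 4H.
Rpl37a (chr1:72711245-72711274, + strand): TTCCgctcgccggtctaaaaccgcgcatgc
Rpl24 (chr16:55966260-55966289, + strand): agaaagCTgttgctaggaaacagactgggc
Rpl7l1 (chr17:46782642-46782671, - strand): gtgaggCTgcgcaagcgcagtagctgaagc

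Ribosomal protein mRNAs were lower after 4 h of stretch, with medians of -0.39 on the log2 scale in the large and -0.38 in the small subunit. With limma on log2(FPKM + 0.5) and Benjamini-Hochberg adjustment over all 11593 genes tested, 68 of the 80 genes passed an adjusted p of 0.05 as lower in 4H, where 24.1% of all genes tested were lower. No gene of the 80 was higher at that threshold, where 22.6% of all genes were, and none was higher at an unadjusted p under 0.05 either, while 70 were lower at that unadjusted level. The median log2 fold change was -0.39, with an interquartile range of 0.173, against a median of -0.01 and an interquartile range of 0.373 over all genes tested. In 68 of the 80 genes every 4H library lay below every CON library, which held for 29.2% of all genes tested. With a second threshold, a log2 fold change of 1 or more in size, 1 gene, Rpl17, was called, against 3.88% of all genes tested. Log2 fold changes are differences, 4H minus CON, on this scale throughout. In bulk RNA, fewer cells of a type and less RNA per cell cannot be told apart, and FPKM is a share of each library rather than an amount per cell.

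**Figure D1:**
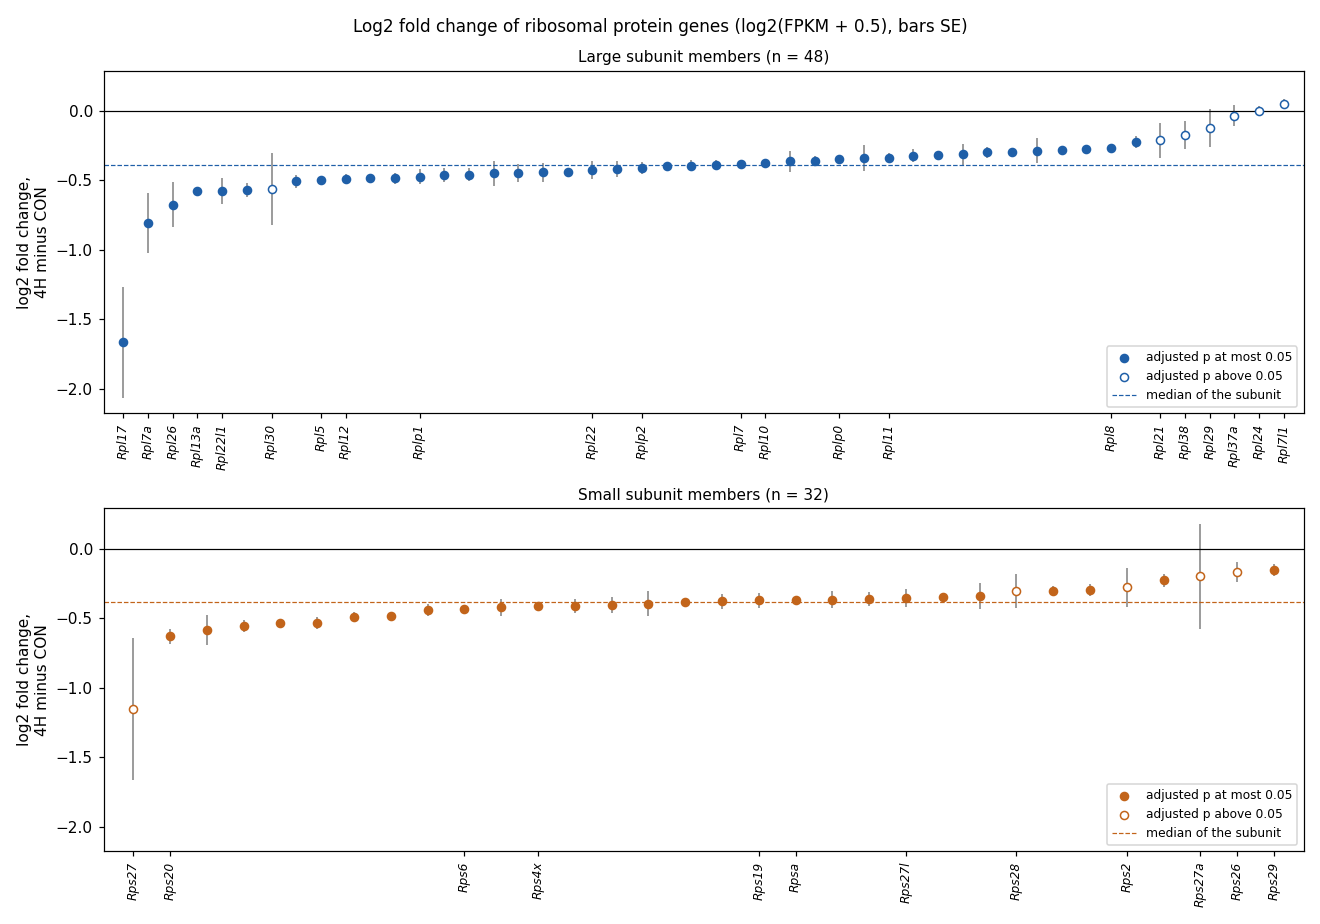
Log2 fold change, 4H minus CON on log2(FPKM + 0.5), of 48 large subunit genes (upper panel) and 32 small subunit genes (lower panel), in order of size, with bars for the SE. Filled points passed an adjusted p of 0.05 and open points did not, and genes of the rule for named genes are labelled. Most points lie between -0.6 and -0.2, near the dashed medians of -0.39 and -0.38, and Rpl17 at -1.66 and Rps27 at -1.15 lie apart.

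Together the 80 genes made up 8.76% ± 0.163 of all FPKM in the CON libraries and 6.80% ± 0.176 in the 4H libraries (SD, n = 3). Their summed level was 35248, 33972 and 35005 FPKM in the CON libraries and 25418, 26802 and 26658 FPKM in the 4H libraries, a ratio of 0.757 between the means. The groups did not overlap in this sum. The sum of large subunit genes divided by that of small subunit genes was 1.49 ± 0.0469 in CON and 1.51 ± 0.0146 in 4H, and the groups overlapped. Of the large subunit, 41 of 48 genes were lower, with a median of -0.39, and of the small subunit 27 of 32, with a median of -0.38.

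Marker genes were examined before the single genes. Of 6 myoblast markers 5 had a mean of at least 1 FPKM, led by Des, which encodes desmin, while Pax7 was at 0.440 FPKM on average. Their summed level was 133 to 135 FPKM in CON and 168 to 174 FPKM in 4H, but its members did not all move one way. Mean levels were 71.6 FPKM in CON and 88.8 FPKM in 4H for Des and 5.13 and 18.2 FPKM for Myod1, while Myf5 was at 15.8 and 9.82 FPKM, with no overlap between the groups. Of 4 leukocyte markers, Ptprc and Adgre1 were listed at 0 in all 6 libraries, and Cd68, which encodes a lysosomal membrane protein, carried most of a sum that was 6.73 to 8.51 FPKM in CON and 16.5 to 18.5 FPKM in 4H. The fourth, Csf1r, measured 0, 0 and 0.0272 FPKM in CON and 1.48, 0.966 and 0.792 FPKM in 4H. Summed differentiated muscle markers were 1.26 to 2.10 FPKM in CON and 2.15 to 2.74 FPKM in 4H, with Acta1, the 1 of 6 at a mean of at least 1 FPKM, carrying most of it. Myog, which encodes the differentiation factor myogenin, went the other way, at 0.281, 0.136 and 0.235 FPKM in CON and 0.0794, 0 and 0 FPKM in 4H. The 4 endothelial markers summed to at most 0.387 FPKM and the 4 epithelial markers to at most 0.553 FPKM in any library, and in both sums no 4H library was as low as any CON library. The part of these shifts in the result was not tested.

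Ribosomal protein genes were among the most abundant mRNAs of these cells. Their mean level had a median of 322 FPKM and ran from 3.08 to 1317 FPKM, against a median of 12.1 FPKM over all genes tested, and 15 of the 50 and 30 of the 100 most abundant genes were ribosomal protein genes. Rplp0, the scaffold of the stalk, was the most abundant, followed by Rpsa, Rpl8, Rps6 and Rps4x. Rplp0 measured 1477, 1450.4 and 1497 FPKM in CON and 1159, 1174 and 1146 FPKM in 4H. Rpsa, a small subunit protein that also occurs as a laminin-binding protein, measured 1217, 1204 and 1254 FPKM in CON and 959.8, 949.9 and 938 FPKM in 4H. In both genes the groups were separated by far more than the spread within them. Log2 fold changes were -0.35 ± 0.02 (SE) for Rplp0, with an adjusted p of 1.20e-05, and -0.37 ± 0.03 for Rpsa, with an adjusted p of 1.15e-05. Rpl8, next to the peptidyl transferase centre, fell from 1116 ± 7.29 to 926 ± 17.0 FPKM (SD, n = 3) and had the smallest log2 fold change of these 5, -0.27. Rps6, the substrate of the S6 kinases, fell from 1004 ± 13.9 to 741 ± 6.38 FPKM, a log2 fold change of -0.44, and Rps4x from 966 ± 4.37 to 724 ± 15.4 FPKM, a log2 fold change of -0.42.

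**Figure D2:**
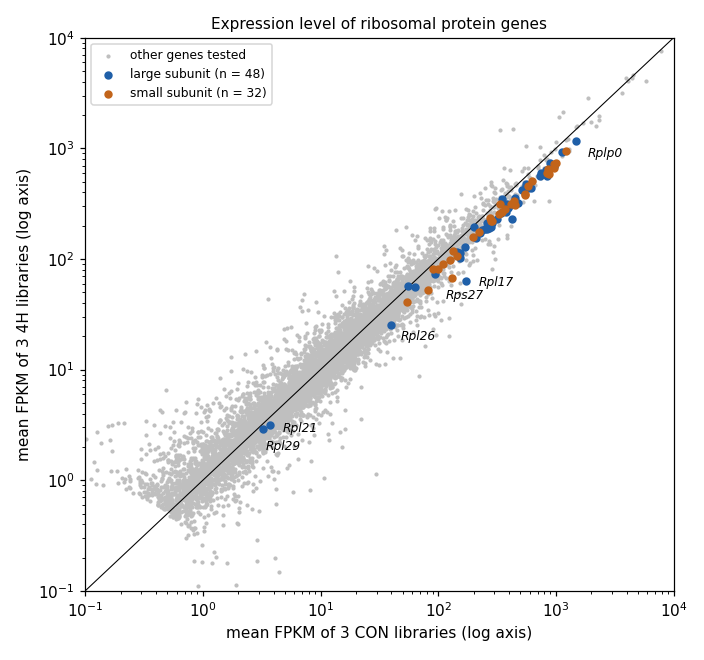
Mean FPKM of 3 4H libraries against mean FPKM of 3 CON libraries, both on log axes, for large subunit genes (blue, n = 48), small subunit genes (orange, n = 32) and the other genes tested (grey), with the line of equal level. The 18 genes with a group mean under 0.1 FPKM are not drawn. Most ribosomal protein genes lie at the upper end of the cloud and below the line of equal level, and Rpl21 and Rpl29 lie near 3 FPKM.

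At the low end, Rpl29 and Rpl21 were listed near 3 FPKM, and Rpl26 followed at 38.5 to 40.7 FPKM in CON. Rps15a and Rps20, the fourth and the seventh lowest by mean level, were assigned long annotated transcripts of 5130 and 3706 bases here, where the median of the 80 genes was 751 bases, and FPKM divides by a length. The lengths behind the deposited FPKM are not stated. Levels of different genes are compared only per length, as FPKM gives them.

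The stalk is the part of the large subunit that recruits elongation factors, and all 4 of its genes were lower in 4H. Rplp1 measured 983, 908 and 997 FPKM in CON and 644, 714 and 722 FPKM in 4H, Rplp2 172, 164 and 173 FPKM in CON and 120.0, 134 and 130.0 FPKM in 4H. Rpl12, at the base of the stalk, measured 636, 602 and 602 FPKM in CON and 425, 449.8 and 436 FPKM in 4H. No 4H library reached the lowest CON library in any of these genes. Log2 fold changes were -0.47 ± 0.05 (SE, adjusted p = 1.59e-04) for Rplp1, -0.41 ± 0.04 (adjusted p = 1.45e-04) for Rplp2 and -0.49 ± 0.03 (adjusted p = 1.05e-05) for Rpl12. With Rplp0 the median of the stalk was -0.44.

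Rpl5 and Rpl11 bind the 5S ribosomal RNA, and their particle also binds Mdm2, the ligase that degrades p53, when ribosome assembly is disturbed. Both were lower in 4H. Rpl5 went from 370.1, 377 and 378 FPKM in CON to 257, 270.4 and 267 FPKM in 4H, a log2 fold change of -0.50 ± 0.03 (SE, adjusted p = 3.49e-06). Rpl11 went from 442, 448 and 463 FPKM in CON to 344, 373 and 353 FPKM in 4H, a log2 fold change of -0.34 ± 0.04 (SE, adjusted p = 1.23e-04).

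Proteins that line the peptide exit tunnel or surround its opening had a median of -0.47, with 8 of 8 genes lower. This group holds Rpl17, Rpl26, Rpl19, Rpl23a, Rpl35, Rpl31, Rpl39 and Rpl4, and its log2 fold changes ran from -1.66 for Rpl17 to -0.27 for Rpl4. The remaining 32 large subunit genes without paralogs had a median of -0.38, and 26 of them were lower. Among them, Rpl13a, which also takes part in silencing of inflammatory mRNAs, measured 836, 824 and 860.2 FPKM in CON and 547, 574 and 566 FPKM in 4H, with a log2 fold change of -0.58 ± 0.03 (SE, adjusted p = 1.98e-06). Rpl10, one of the last proteins to join the large subunit, measured 822, 805 and 837 FPKM in CON and 626, 622 and 654 FPKM in 4H, with a log2 fold change of -0.37 ± 0.03 (SE, adjusted p = 2.27e-05).

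In the small subunit, 12 of 14 genes of the head were lower, with a median of -0.38, and 14 of 17 genes of the body and platform, with a median of -0.42. Rps20, in the head, had the lowest log2 fold change of the small subunit genes that passed the test, -0.63 ± 0.05 (SE, adjusted p = 3.84e-05), and measured 82.8, 77.2 and 83.9 FPKM in CON and 48.6, 53.7 and 54.8 FPKM in 4H. Of the 75-base stretches of its principal transcript, 6.55% also occur in transcripts of other genes. Rps19, the gene most often mutated in Diamond-Blackfan anaemia, an inherited failure of red cell production, measured 339.7, 313 and 328 FPKM in CON and 232, 267 and 259 FPKM in 4H, with a log2 fold change of -0.37 ± 0.05 (SE, adjusted p = 7.40e-04). Of 19 members in which mutations cause this anaemia, 16 were lower, with a median of -0.42, while Rps26, Rps27 and Rps28 did not pass the test.

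Within each group 1 library was lower than the other two in most genes. CON replicate 2 was the lowest CON library in 57 of 80 genes, and 4H replicate 1 the lowest 4H library in 60 of 80. Relative to the CON mean, the median of the 80 genes was 0.03, -0.04 and 0.03 on the log2 scale in the CON libraries and -0.47, -0.35 and -0.36 in 4H replicates 1, 2 and 3, so that the groups did not overlap. Against the other two libraries of its group, 4H replicate 1 had a median of -0.19 over the 25 genes with transcripts of up to 600 bases and of -0.06 in both classes of longer transcripts. CON replicate 2 had medians of -0.10, -0.06 and -0.04 in the short, middle and long class. Without 4H replicate 1 the median of the 80 genes was -0.36, and without CON replicate 2 it was -0.42.

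**Figure D3:**
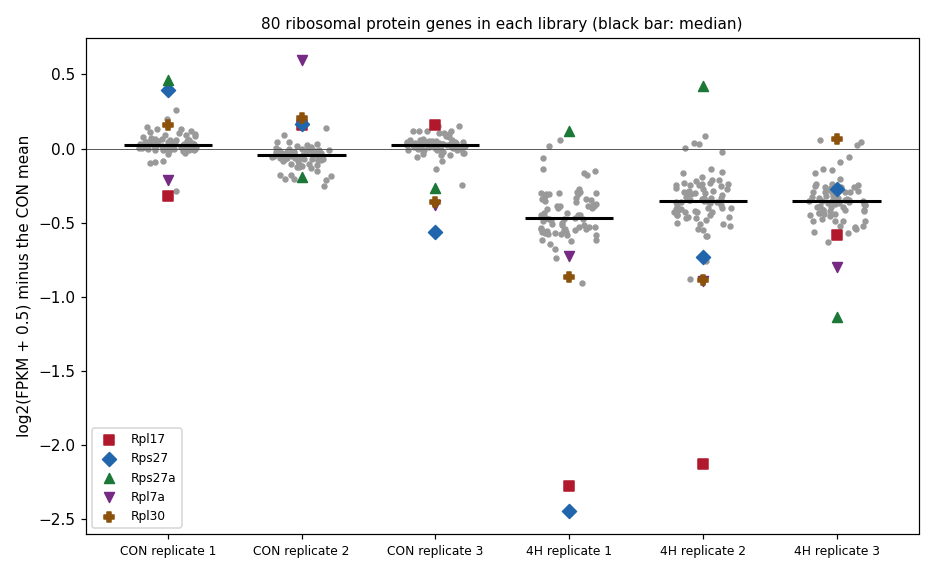
Log2(FPKM + 0.5) of each of 80 ribosomal protein genes minus its CON mean, by library, with a black bar for the median. Grey points are single genes and coloured symbols mark Rpl17, Rps27, Rps27a, Rpl7a and Rpl30. The 3 4H medians, -0.47, -0.35 and -0.36, lie below the 3 CON medians, and the marked genes spread widely within a group.

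A few genes stood apart by size or by their spread. Ranges of 1.5 times the interquartile range around the quartiles put Rpl17, Rps27 and Rpl7a below and Rpl37a, Rpl24 and Rpl7l1 above the rest. Rpl17 (ENSMUSG00000062328), a protein of the tunnel exit, measured 137, 191 and 192 FPKM in CON and 35.0, 38.7 and 114 FPKM in 4H. 4H replicate 3 came nearest to the CON libraries, and the other two lay far below it. The log2 fold change was -1.66 ± 0.40 (SE, adjusted p = 0.00983), and it ranged from -2.21 to -1.36 with 1 library left out or another setting. Rpl7a (chr2:26910764-26913318 in GENCODE M21, GRCm38, as are the positions that follow) measured 346, 606 and 307 FPKM in CON and 242, 216 and 231 FPKM in 4H. CON replicate 2 was well above the other CON libraries, and without it the log2 fold change was -0.51 in place of -0.81 ± 0.22 (SE, adjusted p = 0.0163). Rpl26, whose protein also binds the mRNA of p53, measured 40.7, 38.5 and 40.7 FPKM in CON and 21.1, 21.5 and 33.9 FPKM in 4H, with a log2 fold change of -0.67 ± 0.16 (SE, adjusted p = 0.00898).

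The pooled SD of log2 values within groups had a median of 0.0716 and was under 0.1 in 53 genes, but it exceeded 0.3 in 5, Rps27, Rpl17, Rps27a, Rpl30 and Rpl7a. Rps27 (ENSMUSG00000090733, chr3:90212671-90213651), a zinc finger protein of the 40S subunit, measured 166, 141 and 85.1 FPKM in CON and 22.6, 75.4 and 104 FPKM in 4H. Its groups overlapped, since 4H replicate 3 lay above CON replicate 3, and its log2 fold change of -1.15 ± 0.51 (SE) had an adjusted p of 0.0985. Single libraries decided this value, which was -0.51 without 4H replicate 1, no longer outside the range of the other genes, and -1.59 with an adjusted p of 0.036 without 4H replicate 3. Rps27a (chr11:29545846-29547860), which is made as a fusion with ubiquitin, measured 453, 287 and 273 FPKM in CON and 356, 441 and 149 FPKM in 4H. Here 4H replicate 2 lay just below the highest CON library and 4H replicate 3 was the lowest of all 6, and the log2 fold change of -0.20 ± 0.38 (SE) had an adjusted p of 0.692. Rpl30 measured 299, 309 and 208 FPKM in CON and 147, 145 and 280.0 FPKM in 4H, with a log2 fold change of -0.56 ± 0.26 (SE, adjusted p = 0.107). 4H replicate 3 lay above CON replicate 3, and without 4H replicate 3 the log2 fold change was -0.87, with an adjusted p of 0.00406. It was -0.41 without 4H replicate 1 and -0.40 without 4H replicate 2.

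Many ribosomal protein genes have near-identical copies elsewhere in the genome, most of them processed pseudogenes, so reads can be split between a gene and its copies in a way that depends on the counting. Recurrence was measured as the percentage of the 75-base stretches of a gene's principal transcript that also occur in an annotated transcript of another gene. It had a median of 47.9% over the 80 genes and ran from 0% to 98.5%. It was 98.5% for Rps27, 77.9% for Rpl17, 77.4% for Rpl7a, 70.7% for Rps27a and 40.1% for Rpl30. Over the 80 genes, pooled SD and recurrence had a Pearson's r of 0.25 and a Spearman's rho of 0.08, and the part of recurrence in the spread was not tested. Values of genes with high recurrence are uncertain where reads were split. Among 11 genes with under 10% recurrence 10 were lower, with a median of -0.35, and the exception was Rpl7l1. Of 34 genes with 10% to 50% recurrence 28 were lower, with a median of -0.40, and of 35 with 50% or more 30 were lower, with a median of -0.38. Rps3, in the 40S head, had no recurring stretch. It measured 349.8, 342 and 352 FPKM in CON and 264, 270.3 and 265 FPKM in 4H, a log2 fold change of -0.39 ± 0.03 (SE, adjusted p = 8.89e-06). Rps3, like Rpl4 above, was named after its values were seen. Without the 10 genes of the largest spread within groups, 64 of 70 were lower and the median was -0.38.

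The 12 genes that did not pass the test were of several kinds. Rps27, Rpl30 and Rps27a varied widely within groups, as given above, and Rps2 did so less, at 80.6, 108 and 109 FPKM in CON and 75.5, 96.9 and 72.9 FPKM in 4H, with a log2 fold change of -0.28 ± 0.14 (SE, adjusted p = 0.134). Rpl21 and Rpl29 were listed at very low levels, Rpl21 with 4.53, 3.15 and 3.54 FPKM in CON and 3.32, 3.04 and 3.02 FPKM in 4H, and Rpl29 with 3.76, 3.33 and 2.63 FPKM in CON and 3.37, 2.55 and 2.86 FPKM in 4H. Their adjusted p was 0.194 and 0.501. Of their 75-base stretches, 39.6% and 56.8% recur, shared with 61 and 43 other genes, and the part of this in their levels was not tested. Rps28, Rps26 and Rpl38 had negative log2 fold changes, -0.30, -0.17 and -0.17, with adjusted p of 0.0692, 0.0888 and 0.195. With 1 library left out, the test was passed by Rps28 (CON replicate 2 or 4H replicate 3), Rps26 (the same libraries), Rps2 (CON replicate 1 or 4H replicate 2) and Rpl38 (4H replicate 2), at adjusted p of 0.0226 to 0.0447, and Rps28 also passed with the trend on length and GC content removed, at -0.30 with an adjusted p of 0.0222. Over the 17 alternatives, log2 fold changes also came as near to 0 as -0.17 for Rps28, -0.10 for Rps26, -0.20 for Rps2 and -0.11 for Rpl38. Adjusted p from limma rose to as much as 0.187, 0.242, 0.331 and 0.445. Rpl38, known for its part in translation of homeobox mRNAs, measured 67.3, 55.7 and 67.1 FPKM in CON and 51.1, 64.5 and 52.9 FPKM in 4H. Rps29 passed at an adjusted p of 0.025 with a log2 fold change of -0.15, but lost the call when any of CON replicate 1, CON replicate 3, 4H replicate 1 and 4H replicate 2 was left out, at an adjusted p of 0.0529 to 0.0822, with limma without a trend, at 0.0666, after rescaling to TPM, at 0.0685, and with the trend on length and GC content removed, at 0.052.

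The last 3 genes, Rpl24, Rpl37a and Rpl7l1, had log2 fold changes between -0.04 and 0.05. Rpl24, whose protein helps to join the subunits, measured 344, 337 and 358 FPKM in CON and 332, 355 and 352 FPKM in 4H, a difference in log2 of 0.00 ± 0.04 (SE, adjusted p = 0.998). The groups overlapped closely. Rpl37a measured 216, 179.5 and 204 FPKM in CON and 178, 200.2 and 206 FPKM in 4H, a log2 fold change of -0.04 ± 0.08 (SE, adjusted p = 0.719). Rpl24 was the 1 gene of the 80 to be called higher in any setting, at 0.11 with an adjusted p of 0.0241 after quantile normalization. Its recurrence was 80.9%, and that of Rpl37a 26.7%.

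Paralogs were compared with the gene they derive from. Of the 7 paralogs that matched by symbol, Rpl22l1, Rps27l and Rpl7l1 passed the filter. Rpl3l, which replaces Rpl3 in mature striated muscle, was at most 0.0533 FPKM, while Rpl3 was at 514 ± 4.03 FPKM in CON. Rpl10l and Rpl39l, known from the testis, were listed at 0, and Rps4l was too. For each pair the log2 ratio of paralog to parent was tested with a two-sided exact permutation test, which cannot give a p under 0.1 with 3 libraries against 3.

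Rpl7l1, whose protein acts in the nucleolus in assembly of the large subunit, measured 56.6, 53.3 and 55.4 FPKM in CON and 55.6, 58.4 and 57.3 FPKM in 4H, a log2 fold change of 0.05 ± 0.04 (SE, adjusted p = 0.285). Its parent Rpl7 measured 724, 720.0 and 749 FPKM in CON and 555, 569 and 557 FPKM in 4H, a log2 fold change of -0.38 ± 0.03 (SE, adjusted p = 1.03e-05). Rpl7l1 was at 7.54% ± 0.244 of the level of Rpl7 in CON and at 10.2% ± 0.141 in 4H (SD, n = 3), and the groups did not overlap. The log2 ratio was higher in 4H by 0.44, at the smallest p the exact test allows, 0.1, and at 0.3 after adjustment over the 3 pairs. Rpl22l1 and Rpl22 were both lower in 4H. Rpl22l1 measured 167, 128 and 165 FPKM in CON and 97.0, 104 and 104 FPKM in 4H, a log2 fold change of -0.58 ± 0.10 (SE, adjusted p = 0.00147), and Rpl22 measured 272, 250.04 and 226 FPKM in CON and 179.5, 182 and 194 FPKM in 4H, a log2 fold change of -0.43 ± 0.06 (SE, adjusted p = 9.56e-04). Rpl22l1 was at 61.8% ± 11.1 of the level of Rpl22 in CON and at 55.0% ± 1.91 in 4H, and the log2 ratio differed by -0.15 with an exact permutation p of 0.4. Rps27l, a target of p53, was lower as well, at 129.9, 121 and 128 FPKM in CON and 88.2, 107 and 101 FPKM in 4H, with a log2 fold change of -0.36 ± 0.07 (SE, adjusted p = 0.00293). Its ratio to Rps27 ran from 78.4% to 150.5% in CON and from 97.5% to 389.8% in 4H, following the spread of Rps27, and the log2 ratio differed by 0.80 with an exact permutation p of 0.3. Adjusted over the 3 pairs, p was 0.4 for both.

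**Figure D4:**
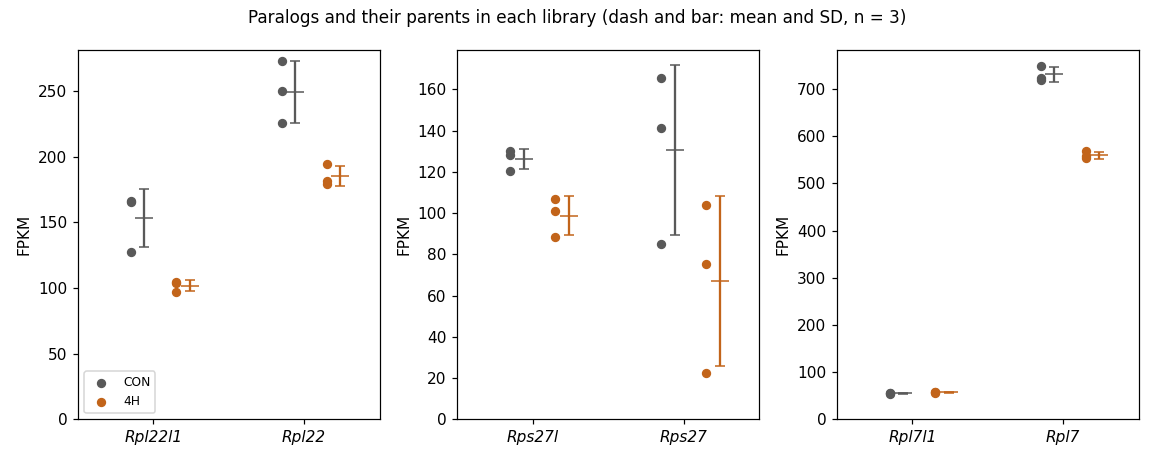
FPKM of 3 paralogs and the genes they derive from, in 3 CON (grey) and 3 4H (orange) libraries, each point a library, with a dash and bar for mean and SD. Rpl7 was lower in 4H while Rpl7l1 lay between 53.3 and 58.4 FPKM, Rpl22l1 and Rpl22 were both lower in 4H, and Rps27 overlapped between the groups.

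Across the 80 genes the log2 fold change followed none of the transcript's measured properties closely. Pearson's r was -0.01 with log2 transcript length, 0.16 with GC content, -0.07 with log2 mean FPKM and -0.21 with recurrence, and Spearman's rho was -0.03, 0.14, -0.13 and -0.09. These are descriptions across genes that share the same 6 libraries, and genes are not independent replicates. By transcript length, 20 of 25 genes of up to 600 bases were lower with a median of -0.41, 29 of 34 genes of over 600 and up to 1000 bases with a median of -0.36, and 19 of 21 longer genes with a median of -0.39. Among the other genes tested, 215 of 797 with transcripts of up to 1000 bases were lower and 136 higher, with a median of -0.05. Of 532 other genes that averaged 100 FPKM or more, 223 were lower and 176 higher, with a median of -0.03.

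In the RefSeq entries, a run of at least 5 C or T through the annotated start base was found in 20 of the 60 genes, 33.3%, and in 11.8% of all 27025 genes of the table. A run of at least 8 within 20 bases of the start was found in 30 of the 60, 50%, and in 18.4% of all genes. Both were read on the strand of the gene, and where a gene had several entries the longest run counted. The median log2 fold change was -0.42 in the 20 genes with the run through the start and -0.36 in the other 40, and Rpl7a, with the longest, is one of the widely varying genes described above. In the window from 250 bases before to 50 after the start, CCGGAAG, the core of sites bound by Ets factors, was found on either strand in 41.7% of the 60 genes and in 9.93% of all genes, or 21.4% of the 8952 genes that were also tested here. AAGATGG, of the Yy1 motif, was found in 16.7% of the 60 and in 7.28% of all genes. GGGCGG, of the Sp1 motif, was found in 63.3% of the 60, in 38.2% of all genes and in 70.8% of the tested genes, and TATAAA in 11.7%, 15.7% and 8.30%. The median log2 fold change of the genes that hold a motif and of those that do not differed by at most 0.06 for each of these features. A match is a description of the letters and not of binding.

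Genes related to the ribosome by function were examined from lists, beside the same background of 24.1% lower and 22.6% higher. Of 20 other TOP mRNAs, which encode mostly translation factors, 19 were lower and 1 was higher, with a median of -0.35. The elongation factor Eef1a1, the most abundant of them, measured 5778, 5799 and 5838 FPKM in CON and 4039, 4113 and 4084 FPKM in 4H, a log2 fold change of -0.51 ± 0.02 (SE, adjusted p = 1.03e-06). Eef2, which moves the ribosome along the mRNA, had a log2 fold change of -0.39, and the subunits of the exchange factor for Eef1a1, Eef1b2, Eef1d and Eef1g, had -0.37, -0.29 and -0.26. The exception was Vim, the intermediate filament vimentin, which rose from 1863 ± 38.3 to 2832 ± 125 FPKM (SD, n = 3). Further components of the ribosome that the symbol rule does not take were lower too, namely Fau, the precursor of a 40S protein, at -0.36 ± 0.05 (SE, adjusted p = 9.10e-04), Rack1, on the 40S head, at -0.40 ± 0.03 (adjusted p = 9.84e-06), and Rpl36al at -0.21 ± 0.04 (adjusted p = 0.00436).

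Ribosome assembly factors, with the RNA polymerase I machinery, gave 11 lower and 1 higher of 24, with a median of -0.15. Among those lower were the polymerase I factor Ubtf (-0.44), the nucleolar protein Ncl (-0.36) and Wdr12 (-0.52) and Pes1 (-0.34) of the complex that matures the large subunit, whose further member Bop1 was lower by less (-0.11, adjusted p = 0.0174), and the gene that rose was Eif6 (0.12), which keeps the subunits apart. Regulators of TOP mRNAs gave 5 lower and 1 higher of 12, with a median of -0.04. With 4H replicate 3 left out, 2 of these regulators were higher. Eif4ebp1, a repressor of cap-dependent translation that mTOR inactivates, fell from 70.8 ± 0.404 to 30.5 ± 1.66 FPKM, a log2 fold change of -1.20 ± 0.04 (SE, adjusted p = 4.03e-07). Myc, a transcription factor that drives ribosome production, fell from 68.8 ± 1.77 to 49.2 ± 1.46 FPKM (-0.48 ± 0.04, adjusted p = 2.03e-05). Larp1 (-0.35), Rheb (-0.39) and Tsc1 (-0.19) were lower, Rptor, a subunit of mTOR complex 1, was higher (0.24, adjusted p = 0.00397), and Mtor itself was at 0.09 with an adjusted p of 0.183. Mitochondrial ribosomal protein genes, whose products form the separate ribosome of that organelle, gave 26 lower and 6 higher of 78, with a median of -0.11 and a range from -0.47 to 0.61. The share of lower genes among them was 33.3%, and it was 85% among the cytosolic genes. In the assembly, regulator and mitochondrial lists, genes other than those of the rule for named genes were picked after their values were seen.

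**Figure D5:**
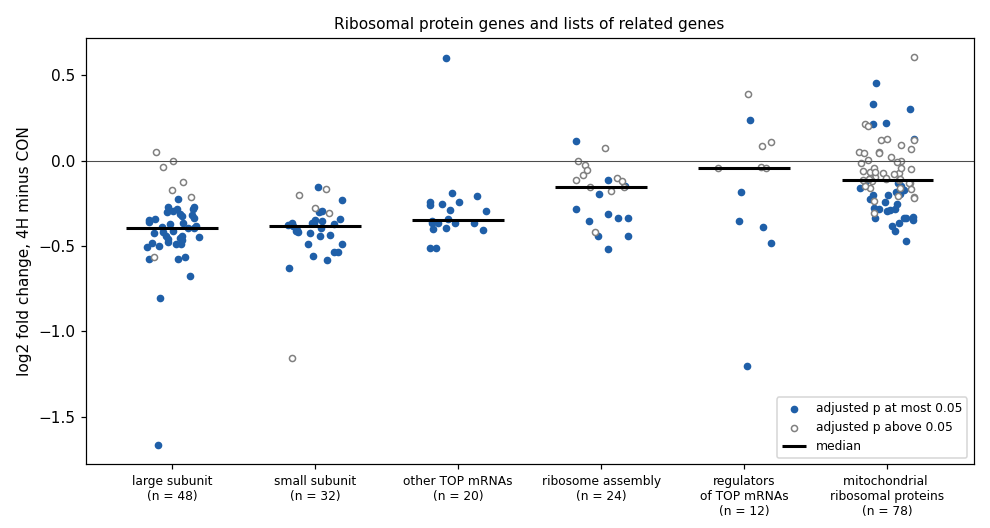
Log2 fold change, 4H minus CON on log2(FPKM + 0.5), of genes in 6 lists, each point a gene, filled at an adjusted p of at most 0.05 and open above it, with a bar for the median. The large and small subunit and the other TOP mRNAs lie around -0.35 to -0.39, and the assembly factors, regulators and mitochondrial ribosomal proteins have medians of -0.15, -0.04 and -0.11.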

How the data were processed

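RNA-seq of 3 CON and 3 4H libraries of C2C12 cells was analysed. Per the labels, poly(A) RNA gave strand-specific libraries read from both ends at 150 bases, and the processing notes name mm10. The authors deposited FPKM values, 1 column per library, and the sources used here name no aligner, counting tool or annotation. FPKM holds no depth, so counting error is not given. Relative depth, read from low values, differed by at most 1.66% between libraries.

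Genes averaging 0.5 FPKM or more were tested on log2(FPKM + 0.5) with limma 3.58.1 in R 4.3.3 (lmFit, eBayes with a trend), two-sided, adjusted by Benjamini-Hochberg over all 11593. Simulation of 4H against CON over 11593 genes recovered 65 of 100 genes changed by 0.4 and 97 of 100 changed by 1 (log2), with 12 false calls. Paralog ratios used exact permutation tests in SciPy 1.17.1. Length, GC content and recurrence came from GENCODE M21 (GRCm38), which held all 80 genes. Python 3.11.15 with pandas 2.3.3 and matplotlib 3.10.9 made the other tables and the plots.

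Named genes were paralogs and parents, stalk, 5S and regulatory proteins, the 5 lowest and 5 highest log2 fold changes, the 5 most abundant, those outside 1.5 interquartile ranges, the 3 most variable, those not past the test, and Fau, Rack1, Rpl36al and elongation factors. Some genes are counted but not reported here by name. Members and lists were chosen with earlier results of these data known. Alternatives were pseudocounts of 0.1 and 1, no filter, filters at 1 and 5 FPKM, TPM, scaling by median of ratios, quantile normalization, removal of the trend on length and GC content, limma without a trend, a replicate block, members with under 10% recurrence, 4 components added, and each library left out. Leaving out the 10 most variable members was added after seeing the data.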

Additional observations from a re-analysis of the deposited data

How the results depend on the processing

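Of 147 repeats of the main results under the alternatives, 140 kept their direction and call or value, and 7 moved. Part of the 140 could not have moved, so this count overstates stability. Limma without a trend and the replicate block leave fold changes as they are, with a median of -0.39 in both. Paralog ratios could not gain a call, since their exact p cannot fall under 0.1. They counted as kept although sizes changed, from 0.80 to 0.23 for Rps27l without 4H replicate 1 and from -0.15 to -0.02 for Rpl22l1 without CON replicate 3. Quantile normalization gave medians of -0.31 for all members, -0.31 for the large and -0.31 for the small subunit, a summed FPKM ratio of 0.812 between 4H and CON, and 1 member higher, Rpl24. It also brought Rpl10 to -0.15, Rack1 to -0.19, and Rps4x and Rpl7 to -0.24. Under 10% recurrence, 10 of 11 genes were lower, the count being smaller because fewer genes entered. With 1 library left out, 64 to 72 members were lower, 0 were higher, and 1 to 2 were differentially expressed, the second being Rps27 without 4H replicate 3 (-1.59, adjusted p = 0.036). The paralog to parent log2 ratio then ranged from -0.28 to -0.02 for Rpl22l1, from 0.23 to 1.22 for Rps27l and from 0.42 to 0.46 for Rpl7l1, and it was 0.32 for Rpl7l1 after quantile normalization. Directions reversed only near 0 or in Rps27a, among the genes named: Rpl37a was at 0.0198 after quantile normalization and 0.00279 with the trend on length and GC content removed, and with 1 library left out the log2 fold change ranged from -0.112 to 0.027 for Rpl37a, from -0.0203 to 0.031 for Rpl24 and from -0.51 to 0.27 for Rps27a. The cause was not tested. Deviations of libraries with the same biosample number correlated at 0.02, -0.09 and -0.13. By title, 4H replicates 2 and 3 are 4H3 and 4H4, and CON replicate 3 is C3. C3 and 4H3, alike in number by title, correlated at 0.18, the highest between any CON and 4H library. With so few libraries these values cannot decide whether libraries were paired. A fit with the biosample number as a block gave 68 members lower, 0 higher and 1 differentially expressed, as without it. The simulation recovered 65 of 100 genes at a log2 change of 0.4. It changed 100 genes at each size among 11593, while 2792 genes passed as lower and 2617 as higher in the data. With fewer changed genes the adjustment asks for a smaller unadjusted p. The simulated recovery is therefore not that of the ribosomal protein genes, for which it was not measured. With 3 libraries a group, a missed call does not show that a gene was unchanged.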
